A study of Mus musculus with 3 samples.

Results

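The genes described here encode proteins that bind RNA and set how transcripts are spliced, many of them in neurons. They were chosen by name among the protein-coding genes of GENCODE M39: every gene whose symbol starts with Rbfox, Celf, Elavl, Nova, Khdrbs, Mbnl, Ptbp, Msi or Srsf followed by a digit, or with Hnrnp, and Qki. This gave 59 of 21757 protein-coding genes on chromosomes 1 to 19, X and Y. Overlapping or touching hMeDIP peaks of the 3 replicates were merged into 13339 regions, and a region was given to a gene when its midpoint lay in the gene body or in the 1 kb upstream of it. In all, 142 merged regions lay in 23 of the 59 genes, and 36 genes had none.

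Most vertebrate genes are spliced in more than one way, and proteins of these families bind short RNA motifs in introns and exons and promote or repress the use of nearby splice sites. RBFOX, NOVA, neuronal ELAVL, CELF, PTBP2 and KHDRBS proteins act in neurons, muscleblind (MBNL) proteins drive the switch from fetal to adult splicing, and SRSF and hnRNP proteins work in nearly all cells. 5-hydroxymethylcytosine (5hmC) is made from 5-methylcytosine (5mC) by TET enzymes, is abundant in neuronal DNA, and is found largely within gene bodies.

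The samples were 3 hydroxymethylated DNA immunoprecipitation (hMeDIP) libraries of cerebellum DNA of a female C57Bl6Cr mouse aged 8 weeks, with no treatment named. DNA was sheared, pulled down with an antibody against 5hmC and read on a nanopore sequencer, which also calls each CpG as 5hmC, 5mC or unmodified C. The pulldown used whole serum in replicate 1, whereas the antibody of replicates 2 and 3 was IgG-purified. The library names give the 3 replicates as pulldowns of the same cerebellum sample, so the spread between them is technical and says nothing of differences between mice. Replicate 1 stood apart with 497 peaks, against 8546 in replicate 2 and 5166 in replicate 3. Over all its deposited CpG calls, inside and outside genes, its 5hmC share was 16.6%, against 28.3% and 28.2% in the others. Within the 142 regions the 3 libraries gave 274, 1037 and 538 CpG base-calls, all on the forward strand. Depth per CpG was low: 80.3%, 65.4% and 74.9% of the CpG sites with a call had only 1 in replicates 1, 2 and 3, and no CpG in these genes had more than 4 calls in a replicate. Confidence intervals (95%, exact Clopper-Pearson) cover counting error only, and calls along the same read are not independent.

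A merged region was present in 39.0% of the 59 genes, against 20.02% of all protein-coding genes. The genes are, however, of very different lengths, and longer genes held regions more often. Of the members of at least 100 kb, 10 of 14 had a region, against 53.3% of all genes of that length. Of the 33 members of 10 to 50 kb, 9 had a region, or 27.3% against 17.3% of all genes in that class. Of the 8 members under 10 kb only Hnrnpdl had a region, or 12.5% against 6.44%. In every class of length the share of members was above that of all genes, although the classes of 50 to 100 kb and 100 to 200 kb held only 4 and 7 members.

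**Figure D1:**
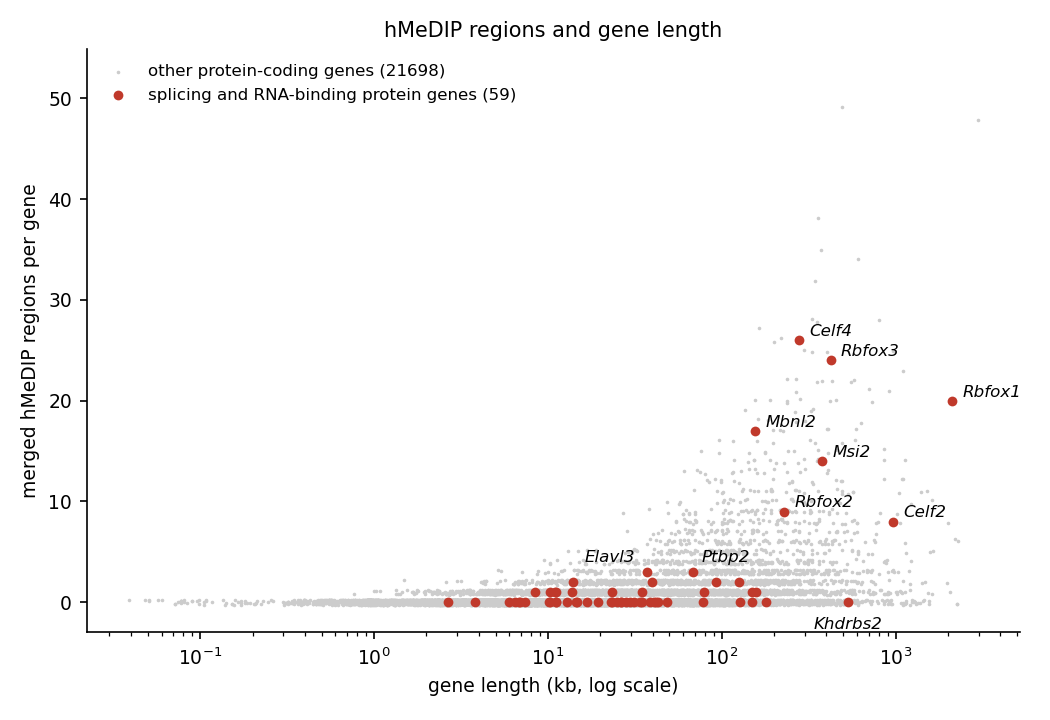
Merged hMeDIP regions per gene (vertical axis) against gene length in kb (horizontal axis, log scale) for the 59 splicing and RNA-binding protein genes (red) and the other 21698 protein-coding genes (grey, shifted vertically by up to 0.25 to separate them). Celf4 with 26 regions and Rbfox3 with 24 lie highest among the members, while Khdrbs2, a gene of 533 kb, lies at 0.

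Per length of gene, member regions numbered 0.841, 12.9 and 7.15 per Mb in the 3 replicates. The other protein-coding genes held 0.385, 6.45 and 3.94 regions per Mb. The members were higher in 3 of 3 replicates, with means of 6.96 ± 6.03 and 3.59 ± 3.05 (SD, n = 3). The two-sided exact sign-flip permutation test gave p = 0.25, which is the smallest p that 3 replicates allow. Counted per 1000 CpG of gene sequence the members were also higher in 3 of 3 replicates (0.748 ± 0.648 against 0.360 ± 0.306, SD, n = 3, exact sign-flip p = 0.25). Of the 6 member regions of replicate 1, 4 were in Celf4. Without Celf4, the mean difference of 3.37 regions per Mb became 2.29 (exact p = 0.5), and replicate 1 turned to -0.0931 regions per Mb.

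Regions were concentrated in few genes. Celf4 (26), Rbfox3 (24), Rbfox1 (20) and Mbnl2 (17) together held 87 of the 142, or 61.3%. Msi2 had 14 regions, Rbfox2 9 and Celf2 8, Elavl3 and Ptbp2 had 3 each, and Celf3, Mbnl3, Nova1 and Nova2 had 2 each. The remaining 10 genes, Celf1, Elavl4, Hnrnpd, Hnrnpdl, Hnrnpl, Hnrnpll, Mbnl1, Ptbp1, Srsf3 and Srsf9, had 1 each. No region held peaks of all 3 replicates. Peaks of 2 replicates were merged in 7 of the 142 regions, or 4.93%, against 6.13% of all regions of protein-coding genes.

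The Rbfox family encodes 3 proteins that bind the same RNA motif and regulate neuronal exons, and RBFOX3 is the antigen of the neuronal marker NeuN. All of its genes held regions. Rbfox3 (chr11:118380442-118802423, 422 kb) had 1, 16 and 9 regions with a peak in replicates 1, 2 and 3. Rbfox1 (chr16:5124665-7230343, 2106 kb, the longest member) had 0, 12 and 9. Rbfox2 (chr15:76963189-77191303, 228 kb) had 0, 6 and 3. In each of these genes replicate 2 had the most regions and replicate 1 the fewest, which is also the order of the total peak numbers. Per length the order differed from that by number: Rbfox3 had 56.9 regions per Mb, Rbfox2 39.5 and Rbfox1 9.50. Over the 2571 protein-coding genes of at least 100 kb the median was 2.74 and the mean 9.36.

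The sequences below show what the pulldown enriched in the Rbfox genes and, for comparison, in Msi2 and Mbnl2. Each is the stretch of 200 bases with the most base-calls in its region, on the forward strand of GRCm39, with every CpG in capitals because these are the positions that were called. The first 3 lie in Rbfox3, at chr11:118458295-118458494, chr11:118747943-118748142 and chr11:118613787-118613986. The others lie in Rbfox1 at chr16:6214864-6215063, in Msi2 at chr11:88460567-88460766 and in Mbnl2 at chr14:120616267-120616466. Introns are numbered in the canonical transcript, and Rbfox3 and Msi2 are transcribed from the reverse strand.
Rbfox3 intron 4: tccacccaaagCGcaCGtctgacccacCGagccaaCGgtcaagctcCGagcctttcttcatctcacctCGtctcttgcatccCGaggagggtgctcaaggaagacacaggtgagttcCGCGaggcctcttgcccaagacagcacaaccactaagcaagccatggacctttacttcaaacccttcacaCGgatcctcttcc
Rbfox3 intron 1: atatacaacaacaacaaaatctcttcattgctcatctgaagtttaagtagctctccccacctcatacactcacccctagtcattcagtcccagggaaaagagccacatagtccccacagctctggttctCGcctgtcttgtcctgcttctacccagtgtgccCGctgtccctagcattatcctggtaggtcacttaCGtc
Rbfox3 intron 2: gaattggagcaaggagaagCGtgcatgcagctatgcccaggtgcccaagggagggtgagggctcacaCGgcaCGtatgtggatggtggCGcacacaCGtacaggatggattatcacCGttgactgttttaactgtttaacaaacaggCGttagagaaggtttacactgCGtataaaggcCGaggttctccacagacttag
Rbfox1 intron 1: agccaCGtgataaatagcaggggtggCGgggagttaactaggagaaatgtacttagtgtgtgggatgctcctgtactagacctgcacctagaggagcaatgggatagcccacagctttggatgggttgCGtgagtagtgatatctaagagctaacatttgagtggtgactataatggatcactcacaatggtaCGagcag
Msi2 intron 6: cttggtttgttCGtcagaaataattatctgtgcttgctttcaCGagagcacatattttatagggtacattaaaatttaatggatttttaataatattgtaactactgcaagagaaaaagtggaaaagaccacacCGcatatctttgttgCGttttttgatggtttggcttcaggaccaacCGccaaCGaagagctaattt
Mbnl2 intron 2: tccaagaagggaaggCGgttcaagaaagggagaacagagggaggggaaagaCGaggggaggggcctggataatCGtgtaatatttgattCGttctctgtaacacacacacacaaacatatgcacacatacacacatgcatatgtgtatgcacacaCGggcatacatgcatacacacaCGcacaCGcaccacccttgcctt

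The Rbfox3 intron 4 stretch holds 10 CpG with 59 calls, of which 33 were 5hmC, 18 were 5mC and 8 were unmodified C. It belongs to a region of 772 bp at chr11:118457783-118458554 with peaks in replicates 2 and 3, where fold enrichment over the local background was 3.77 and 4.78. Over that whole region, the 5hmC calls numbered 5 of 8, 18 of 43 and 25 of 36 in the 3 replicates. Pooled, this is 55.2% of 87 calls (44.1 to 65.9%), and 5hmC was the most frequent state in each replicate, including replicate 1, which had no peak there. It was the highest share among the 26 member regions with at least 20 calls.

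The Rbfox3 intron 2 stretch has a similar number of CpG, 9, but 10 of its 34 calls were 5hmC and 14 were unmodified. Its region, chr11:118613565-118614266, had a peak in replicate 2 alone and a 5hmC share of 25.4% of 59 calls (14.98 to 38.4%). In replicate 2, the library with the most calls in both places, the shares of the intron 4 and intron 2 regions were 41.9% (27.0 to 57.9%) and 25.0% (14.0 to 38.9%), and these intervals overlap. The intron 1 stretch holds only 3 CpG. Its region, chr11:118747639-118748144, had peaks in replicates 1 and 3, with 10 of 14 and 3 of 5 calls as 5hmC, and no call in replicate 2. A neighbouring region in the same intron, chr11:118749769-118750558, had 15 5hmC calls, 20 unmodified and 1 5mC call among 36. These regions had few 5mC calls, at 5.26% and 2.78%, but the remaining pair of regions in intron 1 had 6 of 27 and 2 of 7 calls as 5mC.

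**Figure D2:**
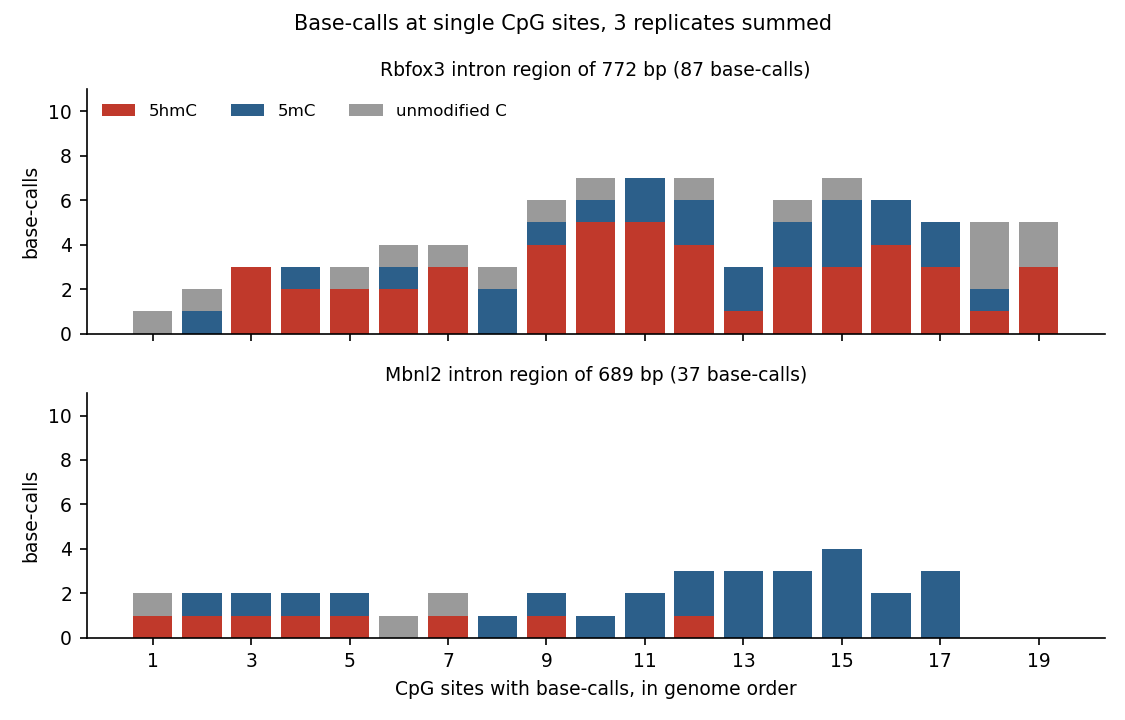
Base-calls (vertical axis, summed over 3 replicates) at each CpG with a call, in genome order (horizontal axis), in the Rbfox3 intron 4 region of 772 bp and in the Mbnl2 intron 2 region of 689 bp; colours give 5hmC, 5mC and unmodified C. The Rbfox3 region has 48 5hmC calls among 87, while the Mbnl2 region has 26 5mC calls among 37.

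The region of Rbfox1 shared by replicates 2 and 3, chr16:6214836-6215233, had only 9 calls, with 4 as 5hmC, 4 as 5mC and 1 unmodified. The regions of Rbfox1 were unevenly placed: 5 lay upstream of the gene's midpoint and 15 downstream, and one stretch of 616 kb between neighbouring regions had none.

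The muscleblind genes Mbnl1 and Mbnl2 differed in their numbers of regions. Mbnl2 (chr14:120512932-120669110) had 0, 11 and 6 regions in replicates 1, 2 and 3, and Mbnl1 (chr3:60380102-60537183) had 0, 1 and 0. The genes are of nearly the same length, 156 and 157 kb, so that Mbnl2 stood at 109 regions per Mb and Mbnl1 at 6.37. Mbnl2 ranked 12 of the 2571 long protein-coding genes in regions per Mb and 11 in regions per 1000 CpG. Mbnl2 also has more CpG, 14.0 per kb against 8.49 in Mbnl1, and per 1000 CpG the values were 7.79 and 0.750. Mbnl3, on the X chromosome, had 2 regions, both in replicate 2.

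The intron 2 stretch of Mbnl2 printed above is the counterpart of the Rbfox3 intron 4 sequence: its 7 CpG had 18 calls, 16 of them 5mC, 2 of them 5hmC and none unmodified. In the whole region, chr14:120615875-120616563, 26 of 37 calls were 5mC and 5hmC made up 21.6% (9.83 to 38.2%). Another Mbnl2 region, in intron 1 at chr14:120524946-120525255, had 5hmC at 1 of 7, 4 of 12 and 9 of 15 calls in the 3 replicates. Its pooled share of 41.2% of 34 calls (24.6 to 59.3%) was among the 3 highest of regions with at least 20 calls.

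Msi2 (chr11:88230208-88609339, 379 kb), a Musashi protein known for translational control in stem cells, had 0, 11 and 4 regions, or 36.9 per Mb, whereas Msi1, of the 10 to 50 kb class, had none. Its 5hmC share was the lowest among the member genes with at least 100 calls, 23.1% of 195 calls (17.4 to 29.6%). By replicate the Msi2 counts were 9 of 15, 20 of 111 and 16 of 69, so that the 15 calls of replicate 1 went the other way from the rest. The Msi2 region shared by replicates 2 and 3, chr11:88460323-88460869, had 7 5hmC calls among 31. The lowest share of any member region with at least 20 calls was also in Msi2, in intron 5 at chr11:88577140-88578498, with 4 of 34 calls as 5hmC (11.8%, 3.30 to 27.5%) and 19 as 5mC.

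CELF proteins regulate splicing and mRNA stability, and CELF4 acts mainly in neurons. Celf4 (chr18:25610508-25887427, 277 kb) was the member with most regions, 4, 16 and 8 in replicates 1, 2 and 3, and it ranked 26 of 2571 long genes with 93.9 regions per Mb. Celf2 (chr2:6544505-7514374), at 970 kb more than 3 times as long, had 0, 5 and 4 regions and 8.25 per Mb. All 8 regions of Celf2 lay downstream of the gene's midpoint. The canonical transcript starts inside the gene body, and the regions lay 4680 to 345333 bp downstream of that start. Celf3 had 2 regions in 13.9 kb, Celf1 had 1, and Celf5 and Celf6 had none.

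Celf4 held 2 of the 7 regions shared by 2 replicates, both in intron 2 and both with peaks in replicates 2 and 3. In the first, chr18:25721269-25721755, 5hmC made up 0 of 4, 2 of 9 and 7 of 9 calls in replicates 1, 2 and 3. The second, chr18:25756779-25757142, had 4 calls in all and 1 was 5hmC. The Celf4 region with most calls, chr18:25619279-25620578, was of another kind. It covered a coding exon, and its midpoint lay 26 bp from the start of an annotated transcript. It held 84 CpG at a GC content of 66.4%, and 47 of its 84 calls were unmodified C. All of these calls came from replicate 2, and their 5hmC share was 20.2% (12.3 to 30.4%). In that replicate it was 34.1% over all 220 Celf4 calls (27.9 to 40.8%). That total includes the 84 calls of the region, which draws the values together, so these intervals do not compare separate sets of calls. In intron 2, chr18:25741245-25741910 had a peak in replicate 3 and 5hmC at 40.5% of 37 calls. By replicate these were 4 of 16, 1 of 1 and 10 of 20, and the most frequent state there was 5mC, with 17 calls. The region of Celf2 shared by replicates 2 and 3, chr2:6544798-6545202, lay at the 3′ end of the gene in an exon outside the coding sequence, with 6 of 21 calls as 5hmC.

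The neuronal ELAVL genes encode proteins that stabilise mRNAs rich in AU and also regulate splicing. Elavl3 (chr9:21926301-21963324) had 3 regions in only 37.0 kb, with a peak in each of the replicates but never in the same place. The largest, chr9:21929384-21930414, covered coding sequence and had the most calls of any member region, 96. Its 5hmC counts were 7 of 30, 18 of 51 and 8 of 15, a pooled share of 34.4% (25.0 to 44.8%). Elavl4 had 1 region in 148 kb, and Elavl2, of 150 kb, had none, as had Elavl1, the member of the family found in most tissues.

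NOVA proteins regulate synaptic splicing, and Nova1 and Nova2 had 2 regions each, in 125 and 39.5 kb. PTBP2 is the neuronal counterpart of PTBP1, a repressor of neuronal exons that is switched off as neurons form. Ptbp2 had 3 regions and Ptbp1 had 1, while Ptbp3 had none. In Ptbp2, 11 of 20 calls were 5hmC (55.0%, 31.5 to 76.9%), 17 of the 20 in replicate 3, so that this share rests on that library.

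Genes of the broadly expressed families are short, with a median length of 14.6 kb for Hnrnp and 11.2 kb for Srsf. Of 20 Hnrnp genes, Hnrnpd, Hnrnpdl, Hnrnpl and Hnrnpll had 1 region each, and of 12 Srsf genes, which encode serine and arginine rich splicing activators, Srsf3 and Srsf9 had 1 each. These counts are close to the shares of all protein-coding genes with a region, 20.02% in all and 17.3% at 10 to 50 kb, and both families held 10.2 regions per Mb, beside 10.7 in other genes of 10 to 50 kb. All 6 of these regions had their peak in replicate 2. The Srsf3 region, chr17:29258490-29259090, lay over an exon that the canonical transcript lacks and also within the lncRNA gene Trp53cor1, and 5hmC made up 2 of 24 and 5 of 19 calls in replicates 2 and 3 (pooled 16.3%, 6.81 to 30.7%). The Hnrnpl region, chr7:28517760-28518170, also lay over an exon absent from the canonical transcript, with 5 of 29 calls as 5hmC (17.2%, 5.85 to 35.8%). These and the Msi2 intron 5 region were the 3 lowest among regions with at least 20 calls. The Srsf9 region was also assigned to a neighbouring protein-coding gene.

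Among the 14 members of at least 100 kb, 4 had no region, which were Khdrbs2, Khdrbs3, Qki and Elavl2. Khdrbs2, which encodes a neuronal STAR-family splicing regulator, is 533 kb long and had no region, nor had Khdrbs3 (179 kb), Khdrbs1 or Qki (128 kb), the quaking gene known for its role in glia and myelin. Of the 7 members of at least 200 kb, 6 had a region (85.7%, against 62.6% of all protein-coding genes of that length), and Khdrbs2 had none. Base-calls were analysed inside merged regions only, so a gene without a region has no measured 5hmC level here, and the absence of a peak at this depth does not show the absence of 5hmC. The differences between related genes in these paragraphs were not tested.

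**Figure D3:**
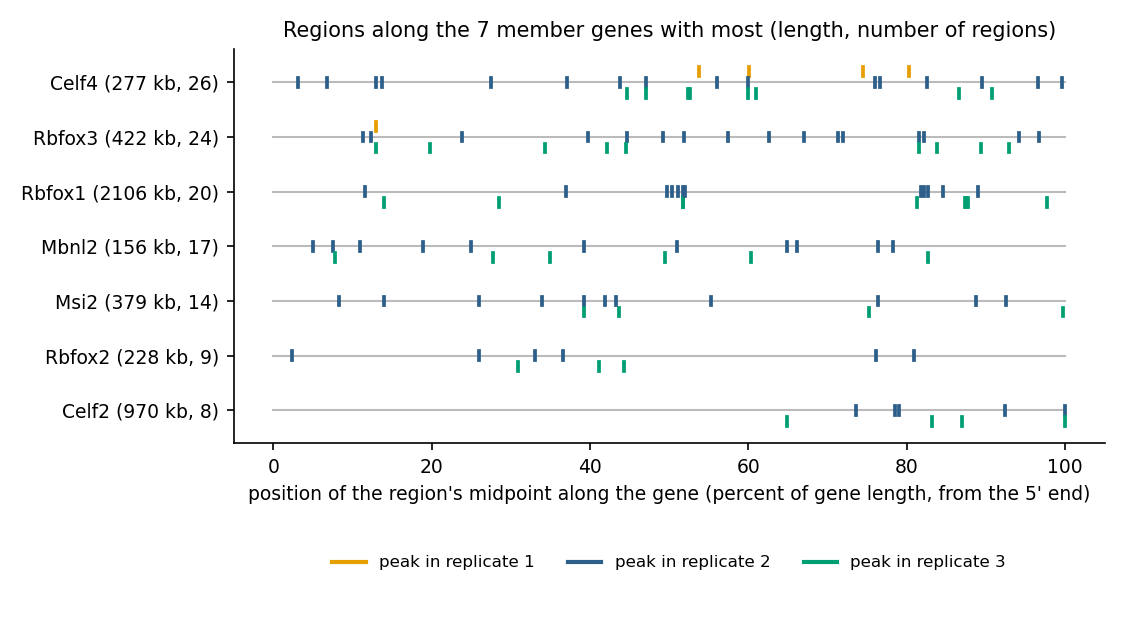
Position of each merged region along the 7 member genes with most regions (horizontal axis, percent of gene length from the 5′ end); ticks mark replicates 1, 2 and 3 in separate colours, and labels give gene length in kb and the number of regions. The regions of Celf4, Rbfox3 and Mbnl2 are spread along most of the gene, the 8 of Celf2 all lie downstream of its midpoint, and Rbfox1 has a gap of 616 kb.

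Member regions were mostly intronic. Midpoints lay in introns for 123 of 142 regions (86.6%), in exons for 18 and in the 1 kb upstream for 1, in Hnrnpll. By replicate, 83.3%, 84.8% and 90.2% of the member regions with a peak were intronic, against 72.6%, 80.0% and 78.6% of the regions of other protein-coding genes. The means were 86.1 ± 3.62% and 77.1 ± 3.90% (SD, n = 3), and the members were higher in each replicate, with 5 of 6 regions in replicate 1. The share of intron in the gene sequence was not compared, and no test was made. A region of the other genes counted as exonic if any gene it was assigned to had an exon there. Member regions were placed by the member gene alone. All 24 regions of Rbfox3, all 20 of Rbfox1 and all 9 of Rbfox2 were intronic. The first intron of the canonical transcript held 33 of the 142. A start of an annotated transcript lay within 5 kb of 37 regions and within 1 kb of 14. Regions of members had a median GC content of 47.0% and 1.64 CpG per 100 bp, against 49.3% and 1.83 for those of the other genes.

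Over all member regions, the 5hmC shares were 33.9%, 31.8% and 37.2% in the order of the replicates. In regions of the other protein-coding genes the shares were 30.5%, 32.4% and 31.6%. The members were thus higher in 2 of 3 replicates and the groups of values overlapped (34.3 ± 2.70% against 31.5 ± 0.933%, SD, n = 3, exact sign-flip p = 0.5). For 5mC the replicates were of one direction: 35.0%, 35.6% and 31.8% in members against 40.7%, 39.9% and 41.1% in the others, with no overlap. The mean 5mC share was 34.1 ± 2.05% in members and 40.6 ± 0.568% in others (exact sign-flip p = 0.25, the smallest possible with n = 3). Unmodified C was higher in members in 3 of 3 replicates, at 31.0%, 32.6% and 31.0% against 28.8%, 27.7% and 27.3% (31.6 ± 0.902% and 28.0 ± 0.781%, exact p = 0.25). Rbfox3, with the most calls of any member, carried much of these differences. Without Rbfox3 the 5mC difference between members and other genes was -1.58, 0.525 and -6.21 percentage points in the 3 replicates, a mean of -2.42 in place of -6.42 (exact p = 0.5). That of unmodified C was 0.602, -0.337 and 1.50, a mean of 0.590 in place of 3.59 (exact p = 0.5), so that neither then had 1 direction in all replicates. The mean 5hmC difference was 1.83 points without Rbfox3, in place of 2.83.

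Replicate 1 had few peaks and the other antibody. With its values left out but the merged regions kept, the members minus the other genes gave 2.52 percentage points for 5hmC, -6.82 for 5mC, 4.29 for unmodified C and 4.83 regions per Mb. Leaving out replicate 2 in the same way gave 4.51, -7.45 and 2.94 points and 1.83 regions per Mb, and leaving out replicate 3 gave 1.46, -4.99 and 3.54 points and 3.45 regions per Mb. Where the peaks of replicate 2 were also taken out of the merging, which changes the regions, the differences were 6.84 points for 5hmC, -3.75 for 5mC and -3.09 for unmodified C. For 5mC and for unmodified C, replicates 1 and 3 then differed in sign. The unmodified C difference also turned at CpG sites with at least 3 calls, where it was -3.85 points. It was 0.783 points at sites with at least 2 calls and 0.633 within the replicate's own peaks. In neither setting did it have 1 direction in all replicates.

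**Figure D4:**
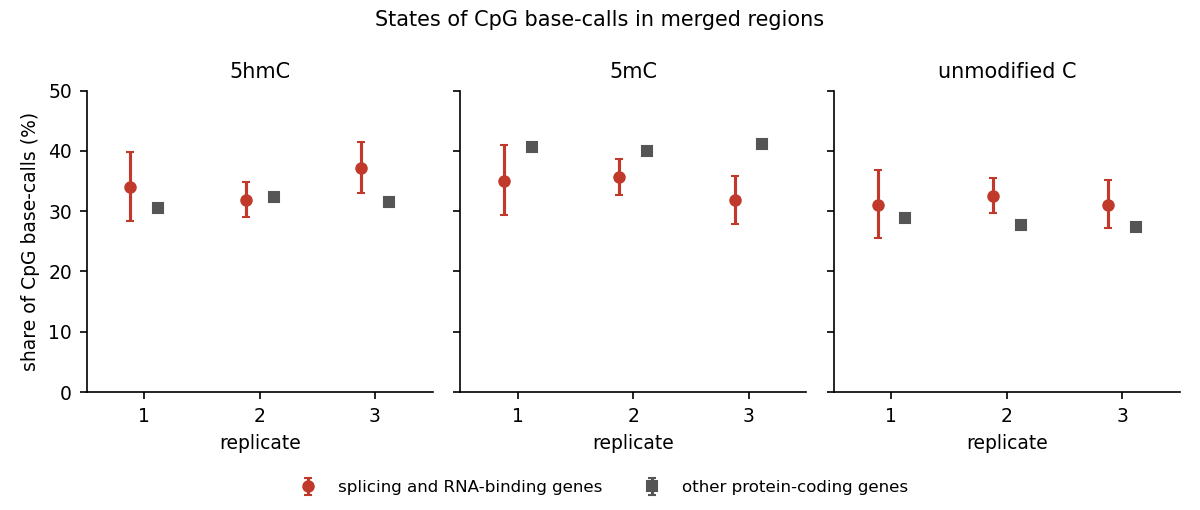
Share of CpG base-calls in percent (vertical axis) called as 5hmC, 5mC and unmodified C in merged regions, by replicate (horizontal axis), for the splicing and RNA-binding protein genes (red circles) and the other protein-coding genes (grey squares); bars are exact 95% intervals for counting error. The 5mC shares of members, 31.8 to 35.6%, all lie below those of other genes, 39.9 to 41.1%; without Rbfox3 the mean difference is -2.42 percentage points in place of -6.42, and replicate 2 has the other sign.

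Peaks and base-calls of a replicate come from the same reads. In member regions without a peak in the replicate itself, the 5hmC shares were 31.7% of 221 calls, 39.7% of 58 and 33.3% of 168, against 31.3%, 31.6% and 34.3% in other genes (higher in 2 of 3 replicates, exact p = 0.75). The pulldown signal itself was of ordinary height. The median fold enrichment at the summit of member peaks was 5.19, 3.80 and 3.87 in replicates 1, 2 and 3, and that of peaks of other genes was 4.72, 3.83 and 3.87 (exact p = 1.0). The sign of the mean difference rested on the 6 member peaks of replicate 1: it was 0.148, and -0.0148 without that library. It was -0.00737 without Rbfox3.

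The genes differed in which state was most frequent. In Rbfox3 5mC was the least frequent state in each replicate, with 19, 57 and 26 calls, or 21.9% of the pooled 465. Unmodified C led the pooled calls at 43.2%, but only through replicate 2 (127 calls against 82 of 5hmC), since 5hmC led in replicates 1 and 3 (31 against 27, and 49 against 47). In Mbnl2 5mC was most frequent in each replicate, with 15, 69 and 22 calls, or 44.9% of the pooled 236. In Celf4 5hmC led the pooled calls at 37.0% of 365, and this rested on replicate 3, where 39 calls were 5hmC and 19 were 5mC. In replicate 1 5mC led with 27 calls against 21, and in replicate 2 both states had 75. The 5hmC counts of Rbfox3 were 31 of 77, 82 of 266 and 49 of 122, those of Mbnl2 10 of 34, 49 of 146 and 20 of 56, and those of Rbfox1 5 of 17, 35 of 74 and 14 of 48. For these 4 genes the pooled 5hmC shares, 33.5 to 38.8%, lay within each other's intervals.

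**Figure D5:**
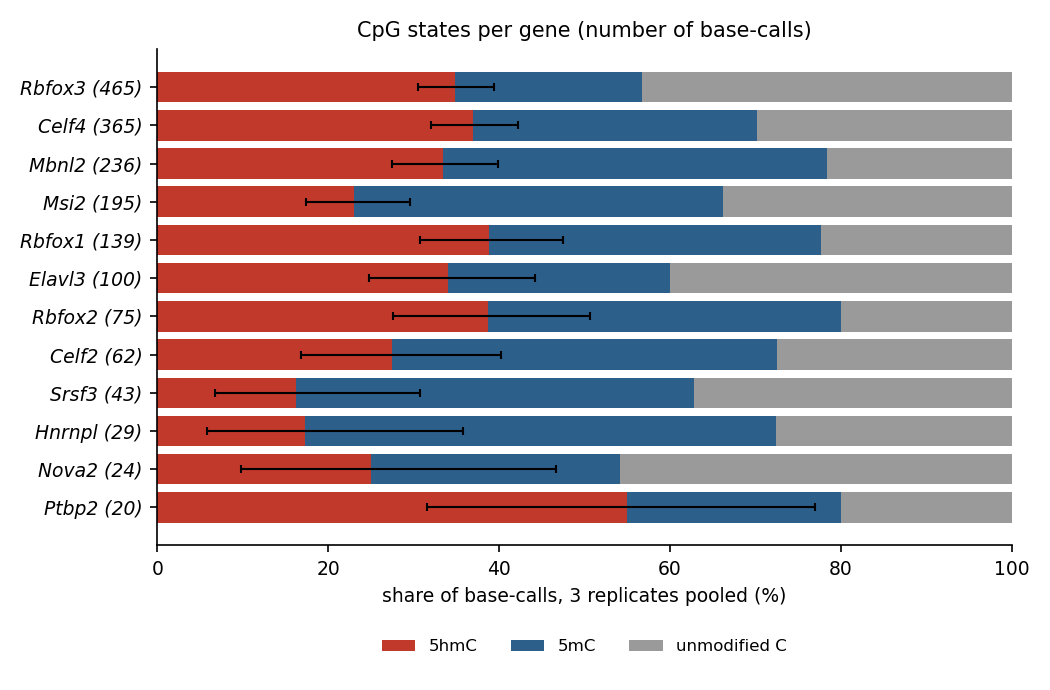
Share of base-calls in percent (horizontal axis, 3 replicates pooled) called as 5hmC, 5mC and unmodified C in the merged regions of each member gene with at least 20 calls, with the number of calls beside the name; bars over the 5hmC share are exact 95% intervals for counting error. Rbfox3 has the most calls, 465, with 21.9% 5mC, while Mbnl2 has 44.9% 5mC.

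Among the 26 member regions with at least 20 calls, 5hmC was the most frequent state in 2 (7.69%, against 24.2% of such regions over all protein-coding genes), 5mC in 12 and unmodified C in 12. The median 5hmC share of these 26 regions was 27.2%, and it was 31.8% over all protein-coding genes. At the other end, 20 of the 135 member regions with any call had no 5hmC call (14.8%, against 14.0% of other genes' regions), the deepest of them with 13 calls. Other regions with many calls had intermediate shares. In Rbfox3 these were chr11:118500587-118501971 with 11 of 44 calls as 5hmC, all in replicate 2, and chr11:118394448-118394751 with 11 of 40.

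Intronic member regions had higher 5hmC shares than exonic ones in 3 of 3 replicates. In introns 5hmC made up 35.7%, 34.0% and 38.2% of calls, and in exons 7 of 35 calls, 25.3% of 253 and 32.2% of 90. The means were 36.0 ± 2.09% and 25.8 ± 6.13% (SD, n = 3), and the values did not overlap. This comparison was chosen after the values were seen and was given no test, and the exonic calls were few and came mainly from Celf4 and Elavl3.

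A list of members known for their action in neurons, chosen with earlier results of these data at hand, was set against the rest. The rest included Celf1, Celf2 and Khdrbs1, although CELF and KHDRBS proteins are named above as acting in neurons. This neuron-enriched list held 15 genes (Rbfox1, Rbfox2, Rbfox3, Celf3 to Celf6, Elavl2 to Elavl4, Nova1, Nova2, Khdrbs2, Khdrbs3 and Ptbp2), of which 10 had a region, and 13 of the other 44 had one, beside 20.02% of all protein-coding genes. These counts are not comparable between the lists, because the median gene length was 148 kb in the first and 23.1 kb in the second. The 5hmC share was 34.2%, 34.6% and 41.0% in the neuron-enriched list and 33.3%, 26.8% and 30.2% in the other members. It was higher in 3 of 3 replicates (36.6 ± 3.81% against 30.1 ± 3.29%, SD, n = 3), and the exact sign-flip test gave p = 0.25, the smallest possible. The values did not overlap between the lists, although in replicate 1 they lay within 1 percentage point of each other. The mean difference was 6.51 percentage points. With the regions kept, it was 9.35, 5.82 and 4.35 with the values of replicates 1, 2 and 3 left out in turn, and it was 0.798 (exact p = 1.0) when the peaks of replicate 3 were also taken out of the merging. Without Rbfox3 the difference was -2.93, 10.4 and 11.3 points in the 3 replicates, so that replicate 1 turned. Per length of gene the lists were close, with 21.0 and 18.2 merged regions per Mb.

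Among 74 other genes of RNA processing, listed by function and outside the families above, 21 had a region (28.4%, against 20.02% of all protein-coding genes). The share with a region was not matched for gene length. These genes held 53 regions, or 8.64 merged regions per Mb over all replicates together, and 36.5% of 647 calls were 5hmC. Counted in the same way the members held 19.9 per Mb. The protein-coding genes outside the members held 7.97 per Mb at 200 kb or more and 14.9 per Mb under 10 kb. Most of the 53 regions lay in few genes here too. Srrm4, which encodes the neuronal microexon regulator nSR100, had 0, 8 and 6 regions and 91.7 per Mb, close to the 93.9 of Celf4. Pcbp3, a poly(C)-binding protein gene, had 10 regions, Adarb1, which encodes an RNA editing enzyme, had 4, and Rbm20, a splicing repressor known from heart muscle, had 3.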

How the data were processed

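The data were peak lists and CpG base-call counts of 3 hMeDIP replicates of cerebellum DNA, grouped and numbered by the sample labels. The authors aligned the reads to mm39 (GRCm39) and called peaks on each replicate alone with MACS2 against untreated DNA of that sample. The deposited lists give fold enrichment (a ratio at the summit), −log10 p-values and q-values and a display score. The deposited pileups, made with modkit, give counts of 5hmC, 5mC and C calls per CpG and the percent modified as computed by the authors, and only the counts were used here. Repeats were masked out of the pileups, per the methods. Reverse-strand calls were not analysed here.

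Peaks were merged where they overlapped or touched. Gene bodies span all transcripts of GENCODE M39, which is on the build of the files. Regions per Mb use the gene body as length. Calls were summed over the CpG sites of regions per replicate, and members were compared with the other protein-coding genes within each replicate by a two-sided exact sign-flip permutation test over 3 replicates. Merging, assignment and the test were checked on simulated data. Values were computed in Python 3.11.15 with pandas 2.3.3, NumPy 2.4.6 and SciPy 1.17.1, and sequences were read with pysam 0.24.0.

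Members, lists and tests were chosen with earlier results of these data known. Every member gene with a region is named. Regions are described in full where peaks of 2 replicates were merged, or where they were among the 10 with most calls, or the 3 highest or 3 lowest in 5hmC share at 20 or more calls. Sequences of 6 such regions are printed, leaving out chromosome 18 and untranslated exons. Alternatives covered the assignment to genes, peak and call minimums, the merging distance and leaving out replicates, Celf4 or Rbfox3.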

Additional observations from a re-analysis of the deposited data

How the results depend on the processing

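Of 105 recomputed values under other settings, 98 kept their direction or stayed close to the reported value. The number of member genes with a region fell from 23 to 9 with peaks of a fold enrichment of at least 4, and was 14 to 23 with 1 replicate left out. With the same fold minimum 80.0% of member regions were intronic. The difference in unmodified C between members and other genes was -3.85 percentage points at CpG sites with at least 3 calls, and ranged from -3.09 to 6.72 with 1 replicate left out. Leaving out a replicate took its peaks out of the merging, so that the regions changed too. Leaving out its values alone, and leaving out Rbfox3, the member with most calls, were chosen after seeing the data. The difference in median fold enrichment ranged from -0.0148 to 0.236 when 1 replicate was left out, and was -0.00737 without Rbfox3. The difference in 5hmC share kept the sign of its mean in all 18 alternatives (1.11 to 12.9 percentage points), as did that in 5mC (-10.4 to -2.42). The 5mC value of -2.42 was without Rbfox3, where replicate 2 had the other sign. Without replicate 2 and its peaks the 5mC difference was -3.75, and replicates 1 and 3 then differed in sign. The difference in 5hmC share between neuron-enriched and other members kept the sign of its mean in all 15 that gave a value (0.798 to 19.8). The lowest was without replicate 3 and its peaks. The difference in regions per Mb kept its sign in all 13, from 0.423 with the fold minimum of 4 to 4.83 without replicate 1. The cause of these movements was not tested. No value could be computed at CpG sites with at least 5 calls, since no member site had more than 4, nor for the neuron-enriched list at sites with at least 3 calls or within a replicate's own peaks. Depth limits every share of a single region or gene, and the exact test over 3 replicates cannot go below p = 0.25.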
